A study of Mus musculus with 16 samples.

Results

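The 10 genes described here encode neuronal splicing regulators of 4 families, Nova1 and Nova2, Rbfox1, Rbfox2 and Rbfox3, Khdrbs1, Khdrbs2 and Khdrbs3, and Ptbp1 and Ptbp2. They were taken by name from tables of 55385 genes, every one of them was found, and all 10 passed the filter on low counts. RNA had been sequenced from primary hippocampal cultures of newborn C57BL/6N mice, infected with a recombinant adeno-associated virus (rAAV) that carried Control-shRNA or Dnmt3a1-shRNA2 and left at baseline or exposed for 4 h to bicuculline, a blocker of GABA-A receptors that induces bursts of action potentials. There were 4 libraries in each of the 4 groups, 16 in all. Dnmt3a1 is the long isoform of Dnmt3a, a methyltransferase that sets methyl groups on cytosines of CpG dinucleotides. In describing its injections into mice, the paper states that the viral serotype was chosen for its tropism for neurons. Which cells of these cultures were infected was not measured here. The shRNA was driven by the U6 promoter, which is active in every cell type, and a chicken beta-actin promoter drove GFP from the same vector. The controls were therefore infected too, no untransduced group was analysed here, and the sample labels do not give the number of the knockdown construct, which the study's methods give as Dnmt3a1-shRNA2.

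Splicing regulators bind short motifs in the introns and exons of a pre-mRNA and decide which exons are kept. NOVA and RBFOX proteins act on exons of synaptic and ion channel genes in neurons, and Rbfox3 encodes NeuN, the antigen by which mature neurons are commonly stained. Khdrbs1, Khdrbs2 and Khdrbs3 encode the STAR family proteins SAM68, SLM1 and SLM2, which regulate exons of the neurexins. PTBP1 binds pyrimidine tracts and mostly represses exons in progenitors, glia and other non-neuronal cells. Its neuronal paralog PTBP2 takes its place during neuronal differentiation, and PTBP1 itself causes skipping of an exon of Ptbp2 whose loss leads to decay of that mRNA. Values per gene, as used here, sum over all transcripts and do not show which exons a transcript carries.

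Of the 10 genes, 2 were called higher after bicuculline, both in Control-shRNA and in Dnmt3a1-shRNA2 cultures, and none was called lower. Of all tested genes, 10.8% were called higher and 11.1% lower in Control-shRNA, and 12.6% and 13.2% in the knockdown. The 2 genes were Khdrbs2, at 2.28-fold and 2.09-fold of baseline, and Ptbp1, at 1.61-fold and 1.77-fold. Ptbp2 and Nova2 were lower after bicuculline by a smaller amount in both cultures, and were called lower only under some other scalings. None of the 10 genes was called between the shRNAs, where 1.76% to 4.07% of all tested genes were called in a given direction. Calls were made with edgeR's quasi-likelihood test over 17222 genes and needed a Benjamini-Hochberg adjusted p under 0.05 together with a log2 fold change of more than 0.5 in either direction.

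The stretches upstream of the genes that moved with bicuculline are shown because DNA methylation falls on CpG, and because the 4 windows differ in how many CpG they hold. They are the 250 bases before the RefSeq transcript start on GRCm38.p6, written 5′ to 3′ on the strand of the gene, with every CpG in capitals.
Khdrbs2: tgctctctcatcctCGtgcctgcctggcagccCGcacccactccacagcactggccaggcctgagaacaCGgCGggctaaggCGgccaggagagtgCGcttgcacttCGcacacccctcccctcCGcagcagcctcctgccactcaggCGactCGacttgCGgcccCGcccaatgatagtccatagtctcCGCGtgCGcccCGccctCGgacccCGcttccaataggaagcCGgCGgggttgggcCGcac
Ptbp1: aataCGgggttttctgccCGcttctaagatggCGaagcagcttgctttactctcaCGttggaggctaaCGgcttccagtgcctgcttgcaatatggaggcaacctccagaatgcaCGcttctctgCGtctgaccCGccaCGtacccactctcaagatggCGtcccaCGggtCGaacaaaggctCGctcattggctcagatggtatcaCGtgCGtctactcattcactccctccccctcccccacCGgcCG
Ptbp2: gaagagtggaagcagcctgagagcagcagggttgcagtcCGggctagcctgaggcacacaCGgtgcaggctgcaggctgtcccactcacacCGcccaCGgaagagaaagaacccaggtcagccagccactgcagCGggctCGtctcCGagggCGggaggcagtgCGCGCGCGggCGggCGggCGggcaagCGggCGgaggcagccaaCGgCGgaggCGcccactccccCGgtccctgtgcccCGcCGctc
Nova2: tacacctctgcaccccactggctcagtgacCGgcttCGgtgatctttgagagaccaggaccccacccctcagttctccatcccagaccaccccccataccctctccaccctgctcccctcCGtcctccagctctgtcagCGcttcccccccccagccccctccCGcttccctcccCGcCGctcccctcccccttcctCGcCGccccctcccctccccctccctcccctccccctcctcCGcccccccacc
The windows were chr1:32172472-32172721 on the plus strand for Khdrbs2, chr10:79854182-79854431 on the plus strand for Ptbp1, chr3:119783389-119783638 on the minus strand for Ptbp2 and chr7:18925638-18925887 on the plus strand for Nova2. The window of Ptbp2 lay inside the span of the gene in GENCODE, which begins farther upstream. The window of Ptbp1 lay inside E130317F20Rik, a long noncoding RNA that leaves the shared promoter on the other strand. CpG was counted 23 times for Ptbp2, 21 times for Khdrbs2, 17 times for Ptbp1 and 10 times for Nova2, beside a median of 6 and an upper quartile of 16 over 32851 RefSeq promoters. Among the other members with an entry, Nova1 held 11, Rbfox3 held 3 and the 2 starts of Rbfox1 held 2 and 6. No methylation was measured in these samples.

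The same windows were searched on both strands for motifs of factors that act in stimulated neurons. The motifs were TGACGTCA of CREB, which contains the shorter TGACG also searched, TGANTCA of AP-1, and GCGTGGGCG and GCGGGGGCG of the EGR family. None of the 7 members with an entry held any of the 5. Over all promoters, TGACGTCA was found in 1.55%, TGACG in 17.8%, TGANTCA in 6.75%, GCGTGGGCG in 0.536% and GCGGGGGCG in 2.57%. No match says only that these letters are not in these 250 bases.

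The libraries were alike in depth, at 28912697 to 29586355 estimated counts each, with 2.73% to 6.60% of them mitochondrial. No pair of replicates was alike within sampling noise, with chi-square per degree of freedom of at least 7.14. Dnmt3a, the targeted gene, lay between 293 and 338 CPM (counts scaled to a common library size) in the 8 Control-shRNA libraries. In the 8 knockdown libraries it lay between 39.4 and 48.0 CPM, with a log2 fold change of -2.81 at baseline and -2.85 with bicuculline. These values sum over the isoforms of the gene, of which the shRNA was aimed at Dnmt3a1. Fos, an activity-induced transcription factor, went from 7.54 to 19.2 CPM at baseline to 726 to 1276 CPM after bicuculline over the 16 libraries. The 8 neuron markers summed to between 6929 and 7691 CPM at baseline and between 8346 and 8995 CPM with bicuculline in Control-shRNA. In the knockdown they summed to between 7710 and 9014 CPM at baseline, above every Control-shRNA baseline library, and between 8953 and 10495 CPM with bicuculline. Of the 8, Nefl (1.25 and 1.39 on the log2 scale) and Nefm (0.74 and 0.85) were called higher and Tubb3 (-0.77 and -1.12) lower with bicuculline, while Dcx was called higher in the knockdown in both conditions (0.58 and 0.62) and Tubb3 at baseline (0.51). The 8 astrocyte markers summed to between 687 and 1083 CPM over all libraries. The 6 microglia markers summed to between 3.43 and 4.91 CPM in Control-shRNA and, without overlap, to between 1.89 and 3.14 CPM in the knockdown, with Csf1r called lower there (-0.66 and -0.75) and Cx3cr1, P2ry12, Aif1 and Tmem119 below the filter. The part of these markers in the differences between the shRNAs described for Khdrbs1, Khdrbs2, Ptbp1 and Rbfox2 was not tested.

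Khdrbs2, on chromosome 1 from 32172714 to 32658568, was the least abundant of the 10 genes and the one with the greatest change. In Control-shRNA cultures it stood at 4.18, 4.97, 4.84 and 5.06 CPM at baseline and at 12.4, 9.59, 11.3 and 10.2 CPM with bicuculline, where CPM is scaled by TMM and compared only within a gene. In knockdown cultures it stood at 7.13, 5.75, 5.68 and 6.73 CPM at baseline and at 13.7, 14.9, 12.4 and 11.9 CPM with bicuculline. All 8 stimulated libraries were above all 8 baseline libraries. The log2 fold change with bicuculline was 1.19 ± 0.11 (SE) in Control-shRNA (adjusted p = 1.72e-07) and 1.06 ± 0.11 in Dnmt3a1-shRNA2 (adjusted p = 3.83e-07). At baseline the knockdown libraries were also all above the controls, by 0.41 ± 0.11 (adjusted p = 0.0198), which is below the fold threshold. That adjusted p was 0.0677 without Control-shRNA baseline replicate 1, 0.0697 without Dnmt3a1-shRNA2 baseline replicate 1 and 0.0584 without Dnmt3a1-shRNA2 baseline replicate 4. It was 0.0519 with library sizes in place of TMM, 0.203 on log2(TPM + 1) and 0.0137 with the replicate number in the edgeR fit. With bicuculline the knockdown libraries overlapped the controls (0.28 ± 0.11, adjusted p = 0.0759), where the adjusted p was 0.0362 without Control-shRNA bicuculline replicate 1 and 0.0456 with DESeq2. The interaction, which asks whether the response to bicuculline differed between the shRNAs, was -0.13 with a 95% confidence interval from -0.45 to 0.20.

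The other Khdrbs genes, Khdrbs1 and Khdrbs3, did not follow Khdrbs2 after bicuculline. Khdrbs1 was measured at 99.5, 99.1, 108 and 106 CPM in Control-shRNA at baseline and at 106, 98.9, 97.9 and 104 CPM with bicuculline. In the knockdown it was measured at 137, 129, 130 and 133 CPM at baseline and at 131, 130, 116 and 130 CPM with bicuculline. Every knockdown library was above every control library, while baseline and bicuculline overlapped within each shRNA. The difference between the shRNAs was 0.36 ± 0.05 at baseline (adjusted p = 0.000186) and 0.32 ± 0.05 with bicuculline (adjusted p = 0.00054), both below the fold threshold, and on log2(TPM + 1) it was 0.24 (adjusted p = 0.0256, limma) and 0.20 (adjusted p = 0.0525, limma). Khdrbs3 ranged from 130 to 164 CPM over all 16 libraries and passed no test. Its log2 fold change with bicuculline was 0.06 in Control-shRNA (95% confidence interval -0.08 to 0.21) and 0.05 in the knockdown (-0.09 to 0.20).

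Ptbp1, on chromosome 10 from 79854427 to 79864771, was higher in every stimulated library than in any baseline library. Its values in Control-shRNA were 20.2, 24.7, 24.9 and 21.7 CPM at baseline and 34.7, 40.4, 34.6 and 37.6 CPM with bicuculline. In the knockdown they were 25.3, 31.7, 26.9 and 30.7 CPM at baseline and 47.0, 56.4, 48.0 and 51.8 CPM with bicuculline. The 4 groups were each separate from the next, with Control-shRNA at baseline lowest and the stimulated knockdown highest. The log2 fold change with bicuculline was 0.69 ± 0.09 in Control-shRNA (adjusted p = 9.52e-06) and 0.83 ± 0.09 in the knockdown (adjusted p = 7.85e-07), and on log2(TPM + 1) the first was 0.49, just under the fold threshold. The knockdown was higher than the control by 0.32 ± 0.09 at baseline (adjusted p = 0.0213) and by 0.46 ± 0.09 with bicuculline (adjusted p = 0.0017). The baseline difference had adjusted p of 0.0758 and 0.0639 without Control-shRNA baseline replicates 1 and 4, and of 0.0641 and 0.0681 without Dnmt3a1-shRNA2 baseline replicates 2 and 4. These fits ignore the replicate number, and with that number in the edgeR fit of all libraries the adjusted p was 0.000833. With library sizes in place of TMM the baseline difference was 0.24 (adjusted p = 0.156), and on log2(TPM + 1) the differences were 0.20 (adjusted p = 0.333, limma) and 0.34 (adjusted p = 0.0827, limma). The difference with bicuculline was called without Control-shRNA bicuculline replicate 2, at 0.51. The interaction was 0.14 (95% confidence interval -0.13 to 0.41).

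Ptbp2 went the other way. In Control-shRNA it stood at 114, 103, 105 and 119 CPM at baseline and at 90.3, 78.0, 83.3 and 87.1 CPM with bicuculline. In the knockdown it stood at 129, 100, 106 and 121 CPM at baseline and at 92.1, 88.9, 80.0 and 88.0 CPM with bicuculline. Baseline and stimulated libraries did not overlap in either, and the log2 fold changes were -0.38 ± 0.08 (adjusted p = 0.000838) and -0.38 ± 0.08 (adjusted p = 0.000653). The size of the change stayed below the fold threshold, except with library sizes in place of TMM, at -0.54 and -0.53, and in Control-shRNA on log2(TPM + 1) and log2(TPM + 0.1), at -0.52 on each. The shRNAs did not differ detectably in Ptbp2, at 0.05 (95% confidence interval -0.12 to 0.21) at baseline and 0.04 (-0.12 to 0.21) with bicuculline. Ptbp3, the other paralog, was called lower with bicuculline in Control-shRNA (-0.53 ± 0.10, adjusted p = 0.000375). That value was -0.50 without Control-shRNA baseline replicate 1 and -0.48 without Control-shRNA bicuculline replicate 2, so the call was lost without either. In the knockdown it was -0.27 ± 0.10 (adjusted p = 0.0381).

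**Figure D1:**
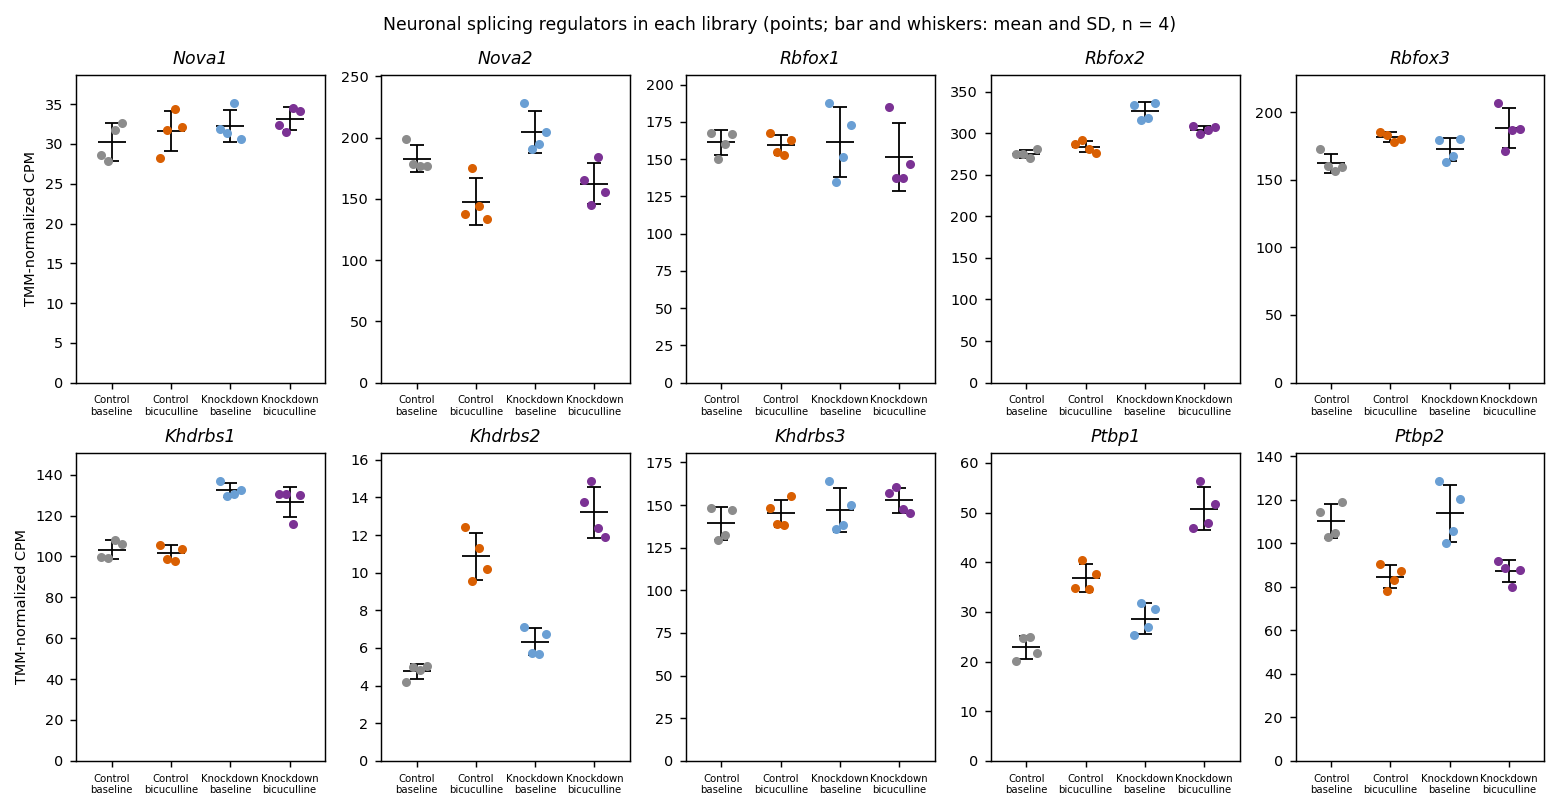
TMM-normalized CPM (y axes, from 0) of each of the 10 genes in the 16 libraries, as points by group (x axes), with the mean and SD of 4 libraries as a bar and whiskers. Khdrbs2 and Ptbp1 stand higher and Ptbp2 and Nova2 lower in the bicuculline groups, and Khdrbs1 stands higher in both knockdown groups.

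The balance of the polypyrimidine tract binding genes, read within each library, differed between baseline and bicuculline. On the TPM scale, which is corrected for transcript length and so allows 2 genes to be set side by side, Ptbp2 exceeded Ptbp1 in all 16 libraries. The ratio of Ptbp2 to Ptbp1 was 6.21, 5.15, 4.53 and 5.56 in Control-shRNA at baseline and 2.64, 2.15, 2.78 and 2.94 with bicuculline. In the knockdown it was 5.93, 3.79, 4.37 and 3.95 at baseline and 2.15, 1.84, 2.08 and 2.11 with bicuculline. The ratio was lower in every stimulated library than in any baseline library. Its group means were 5.36 ± 0.705 (SD, n = 4) and 2.63 ± 0.344 in Control-shRNA and 4.51 ± 0.975 and 2.05 ± 0.140 in the knockdown. A ratio within a library does not depend on how libraries are scaled against each other, and it shows unequal change without saying which gene moved. It is given as a description, with no test.

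Part of Ptbp1's sequence is shared with other genes, so its counts are partly uncertain. Of its distinct 31-mers in GENCODE release M21, 27.5% also occur in another gene, or on its opposite strand. The largest shares were with Gm4900, at 11.1%, and Gm17134, at 7.63%, which were measured at no more than 0.0369 CPM in any library. The overlapping gene E130317F20Rik shared 5.31% and was called lower with bicuculline (-0.52 and -0.69 on the log2 scale). Plppr3, which overlaps on the other strand and shares 3.35%, passed no test with bicuculline (0.19 and 0.06). Khdrbs2, Khdrbs1 and Nova1 shared 1.76%, 3.38% and 3.29% of their 31-mers, and Ptbp2, Khdrbs3 and the 3 Rbfox genes under 0.2%.

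Ptbp1 is also a gene of glia and dividing cells, and the markers of these cells were read in the same libraries. In Control-shRNA the summed astrocyte markers lay between 687 and 890 CPM at baseline and, once stimulated, between 713 and 959 CPM. In the knockdown they lay between 702 and 1025 CPM and between 855 and 1083 CPM, so that the groups overlapped. Of these 8 markers, Sox9, a transcription factor of astrocytes and progenitors, was called higher with bicuculline (1.09 and 1.08 on the log2 scale), and S100b was called higher in the knockdown at both conditions (0.82 and 0.84). The summed markers of the oligodendrocyte lineage and of fibroblasts and vessels overlapped between baseline and bicuculline in both cultures, and Sox10 was at or below 0.0372 CPM. Of single markers, the collagen gene Col1a2 was called higher with bicuculline (0.55 and 0.56) and the myelin gene Mog lower (-0.83 and -0.79), and Lum was called higher in the knockdown with bicuculline (0.67). The 6 proliferation markers summed to between 33.0 and 34.4 CPM at baseline and between 46.1 and 53.6 CPM with bicuculline in Control-shRNA, and to between 34.3 and 36.6 CPM and between 57.4 and 65.1 CPM in the knockdown. Of them, Pcna was called higher (0.76 and 0.95) and Mcm2 lower (-0.99 and -1.02), while Mki67 and Top2a stayed under 1 CPM in all libraries. The part of these markers in the values of Ptbp1 was not tested, and in bulk RNA a change in the number of cells of a type cannot be told apart from a change in RNA per cell.

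Nova2, on chromosome 7 from 18925888 to 18965319, was lower with bicuculline. In Control-shRNA it was measured at 199, 178, 177 and 177 CPM at baseline and at 137, 175, 144 and 134 CPM with bicuculline. In the knockdown it was measured at 229, 190, 195 and 205 CPM at baseline and at 165, 145, 184 and 155 CPM with bicuculline. The groups did not overlap, although Control-shRNA bicuculline replicate 2 lay just under the lowest baseline library. The log2 fold changes were -0.31 ± 0.09 (adjusted p = 0.0103) and -0.33 ± 0.09 (adjusted p = 0.00537), below the fold threshold. On log2(TPM + 1) they were -0.51 and -0.52, and Nova2 was called lower there. Nova1 ranged from 27.8 to 35.2 CPM over all 16 libraries and passed no test, with log2 fold changes with bicuculline of 0.07 (95% confidence interval -0.09 to 0.22) and 0.04 (-0.12 to 0.19). Of the 31-mers of Nova2, 31% are shared with Gm26821, a long noncoding RNA on the opposite strand at the end of the gene. Gm26821 has no entry among the deposited genes, so its level could not be read. Whether the counting used strand is not given in the sources used here, so reads of the pair cannot be told apart.

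The Rbfox genes were abundant and moved little. Rbfox2 was measured at 275, 275, 270 and 281 CPM in Control-shRNA at baseline and at 334, 317, 318 and 337 CPM in the knockdown at baseline. With bicuculline it was measured at 287, 291, 281 and 276 CPM in Control-shRNA and at 308, 299, 304 and 307 CPM in the knockdown. The knockdown libraries were above the controls in both conditions without overlap, by 0.25 ± 0.04 at baseline (adjusted p = 0.000768) and by 0.10 ± 0.04 with bicuculline (adjusted p = 0.118). On log2(TPM + 1) these values were 0.13 (adjusted p = 0.249, limma) and -0.02. The interaction of Rbfox2 was -0.15 (95% confidence interval -0.27 to -0.02), with an unadjusted p of 0.03 and an adjusted p of 0.962 by edgeR, so the difference between the 2 conditions did not pass the correction. Rbfox3 was measured at 173, 160, 156 and 159 CPM in Control-shRNA at baseline and at 186, 183, 178 and 180 CPM with bicuculline, without overlap (0.16 ± 0.06, adjusted p = 0.0322). The adjusted p lay between 0.0619 and 0.088 without Control-shRNA baseline replicate 2, 3 or 4 or without Control-shRNA bicuculline replicate 1, 2 or 4, and on the TPM scales the value turned to -0.03. With the replicate number in the edgeR fit, the adjusted p of Rbfox3 in Control-shRNA was 0.00572. In the knockdown Rbfox3 overlapped between conditions (0.12 ± 0.06, adjusted p = 0.0936, or 0.0409 with DESeq2). Rbfox1 passed no test by edgeR with TMM and ranged from 135 to 188 CPM, with the highest and the lowest library both in the knockdown at baseline. With bicuculline in the knockdown, Rbfox2 was -0.10 ± 0.04 without overlap (adjusted p = 0.0674, edgeR). With library sizes in place of TMM, Rbfox1 was -0.24 and Rbfox2 -0.25 there (adjusted p = 0.0133 and 0.000176, edgeR). On log2(TPM + 1) both were -0.28 (adjusted p = 0.0217 and 0.00325, limma). The median of all genes was -0.16 and -0.13 on these scalings.

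**Figure D2:**
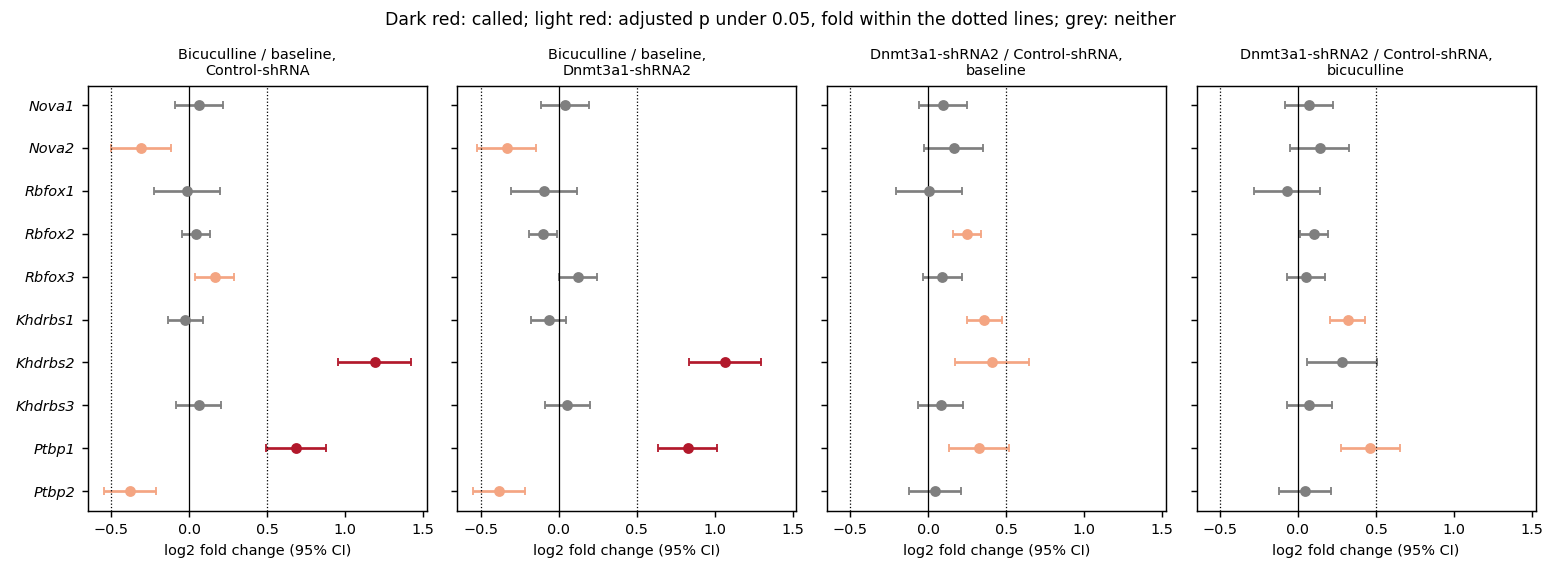
Log2 fold change (x axes) with its 95% confidence interval for the 10 genes (y axis) in the 4 comparisons, with dotted lines at the fold threshold of 0.5 in both directions. Khdrbs2 and Ptbp1 lie beyond the line after bicuculline in both cultures, and no gene does between the shRNAs.

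Counted over all 10 genes, the bicuculline comparison in Control-shRNA called 2 higher and none lower, beside 10.8% and 11.1% of all tested genes. At any fold, 5 of the 10 had an adjusted p under 0.05, beside 41.4% of all genes. The groups did not overlap for 5, beside 39.7%. In the knockdown 2 of 10 were called higher and none lower, beside 12.6% and 13.2%. There 4 had an adjusted p under 0.05 at any fold, beside 46.0%, and 5 did not overlap, beside 40.4%. The counts at any fold and without overlap lie near the background of these 2 comparisons, and the median log2 fold change of the 10 genes, 0.05 and -0.01, lay near that of all tested genes, 0.01 and -0.01.

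Between the shRNAs at baseline none of the 10 genes was called higher or lower, beside 1.76% and 4.07% of all tested genes. An adjusted p under 0.05 at any fold was found for Rbfox2, Khdrbs1, Khdrbs2 and Ptbp1, 4 of 10 beside 16.3%, each with the knockdown higher, and the same 4 did not overlap, beside 19.9%. All 10 values were above 0, from 0.0046 for Rbfox1 to 0.41 for Khdrbs2, but with library sizes in place of TMM those of Rbfox1, Khdrbs3 and Ptbp2 were below 0. With bicuculline none was called higher or lower, beside 2% and 3.90%. There 2 had an adjusted p under 0.05 at any fold, Khdrbs1 and Ptbp1, beside 17.7%, and 3 did not overlap, beside 20.9%. The medians over the 10 genes were 0.13 and 0.09, beside 0.01 and -0.01 over all tested genes. Values above 0 were not particular to the 10. Among the lists described below, medians were 0.19 and 0.22 for hnRNP genes and 0.09 and 0.16 for SR proteins. They were 0.15 and 0.03 for co-regulators, 0.07 and 0.04 for SR protein kinases, and 0.03 and 0.05 for other tissue-enriched regulators. The 4 comparisons share libraries, so their values are set side by side only.

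For the interaction, edgeR called none of the 10 genes and 0% of all tested genes. Of the 17222 genes, 852 had an unadjusted p under 0.05, of which Rbfox2 was the sole one among the 10. DESeq2 called 18 genes, voom with limma 0 and the fit with the replicate number 3, and none of these was among the 10. The values of the 10 ran from -0.15 for Rbfox2 to 0.14 for Ptbp1.

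The levels of the 10 genes spanned a wide range on the TPM scale. Over the 16 libraries Khdrbs3 was highest, with a mean of 194 TPM, followed by Rbfox3 with 151, Rbfox1 with 126, Rbfox2 with 121, Ptbp2 with 91.7, Khdrbs1 with 63.0, Nova2 with 40.1, Ptbp1 with 27.8, Nova1 with 13.4 and Khdrbs2 with 7.61 TPM. In Control-shRNA at baseline each gene exceeded the next in all 4 libraries, and the ranges of Rbfox2 and Ptbp2 overlapped. In the knockdown at baseline the ranges of the first 5 genes overlapped with those of their neighbours, as did those of Ptbp1 and Nova1. Rbfox1 exceeded Rbfox2 in all 4 libraries of both Control-shRNA groups, while Rbfox2 exceeded Rbfox1 in 3 of 4 libraries of both knockdown groups. The order of Nova2 and Ptbp1 also differed between groups. Nova2 exceeded Ptbp1 in all 4 libraries of both baseline groups and of Control-shRNA with bicuculline, while Ptbp1 exceeded Nova2 in 3 of 4 stimulated knockdown libraries.

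Shares within a family followed the same pattern. Ptbp1 made up 15.9% ± 1.77 (SD, n = 4) of the summed TPM of Ptbp1 and Ptbp2 in Control-shRNA at baseline and 27.8% ± 2.81 with bicuculline. In the knockdown its share was 18.5% ± 2.89 and 32.9% ± 1.58. The ranges of baseline and bicuculline did not overlap in either. Khdrbs2 held 1.80% ± 0.198 of the summed TPM of the Khdrbs genes in Control-shRNA at baseline and 3.68% ± 0.454 with bicuculline. In the knockdown it held 2.14% ± 0.0549 and 4.01% ± 0.239. Khdrbs3, at 71.3% to 75.2% in the group means, and Khdrbs1 thus remained the main Khdrbs transcripts. Nova1 held 23.4% ± 1.27 and 26.1% ± 2.11 of the Nova transcripts in Control-shRNA, and 23.3% ± 4.45 and 28.4% ± 1.33 in the knockdown, with overlap between the conditions in both. Among the Rbfox genes Rbfox3 held 37.3% ± 1.34 and 39.8% ± 0.452 in Control-shRNA and 35.9% ± 1.28 and 39.4% ± 1.80 in the knockdown, without overlap in either.

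**Figure D3:**
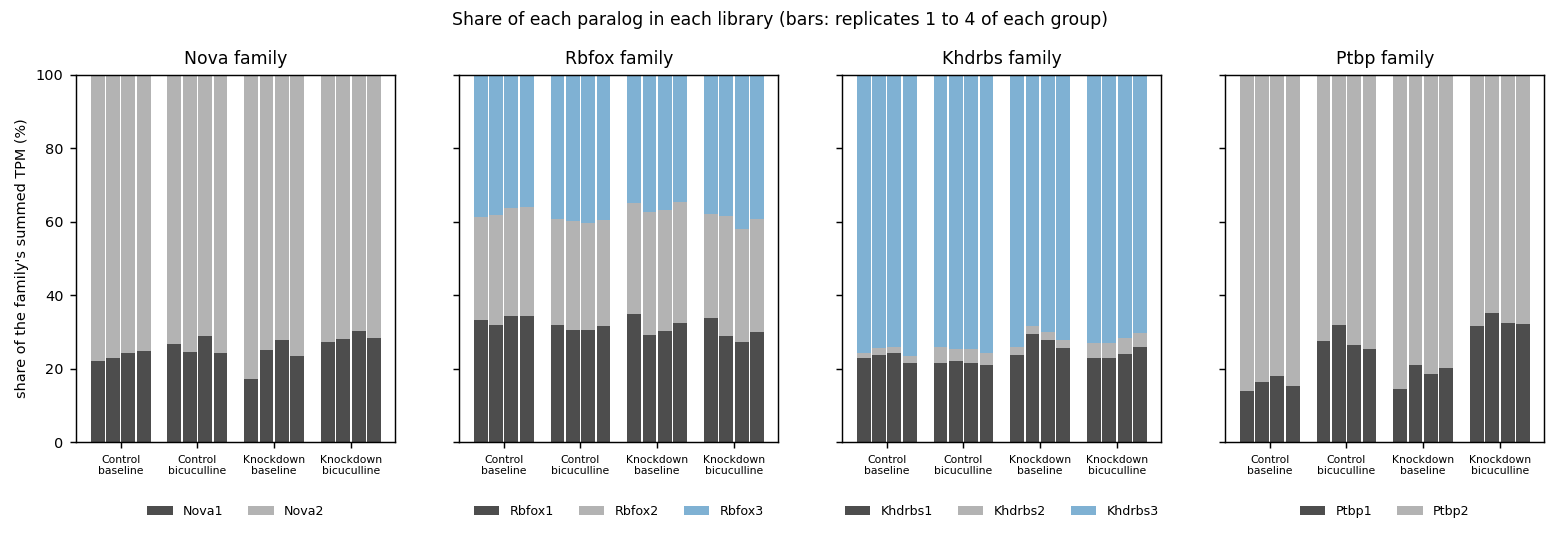
Share of each paralog in the summed TPM of its family (y axis, percent) in each library, with 4 bars for each group (x axes). The share of Ptbp1 lies between 13.9% and 20.9% in the baseline libraries and between 25.4% and 35.2% in the bicuculline libraries.

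The regulators around these families were read from lists of genes. Among 25 other tissue-enriched splicing regulators, 23 were tested, and 3 were called higher and 4 lower with bicuculline in Control-shRNA, and 2 and 3 in the knockdown. The shares over all tested genes, beside which the counts of this and the following lists are given, were 10.8% higher and 11.1% lower in Control-shRNA and 12.6% and 13.2% in the knockdown. Mbnl2, a muscleblind-like regulator, was the most changed of those called higher (1.45 ± 0.09 and 1.80 ± 0.10), with group means of 125 and 340 CPM in Control-shRNA and 109 and 380 CPM in the knockdown. Qk, the quaking gene, another STAR family member that is best known from glia, was also called higher (0.59 ± 0.07 and 0.67 ± 0.07), although with library sizes in place of TMM it was 0.43 in Control-shRNA and on log2(TPM + 1) it was 0.42, both below the threshold. Rbm38 was called higher in Control-shRNA (0.57 ± 0.16, adjusted p = 0.00624), and fell below the threshold without Control-shRNA bicuculline replicate 2 (0.46), with library sizes in place of TMM (0.42) and on the TPM scales (0.23 and 0.26).

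Lower with bicuculline in both cultures were Rbm20 (-1.20 ± 0.19 and -1.48 ± 0.19), known for splicing of titin in the heart, Rbm11 (-0.66 ± 0.14 and -1.70 ± 0.16) and Srrm3, which promotes neuronal microexons (-0.65 ± 0.09 and -0.84 ± 0.10). Rbm11 was in addition lower in the knockdown than in Control-shRNA with bicuculline (-1.33 ± 0.16, adjusted p = 1.83e-05), at 1.23 ± 0.213 CPM against 3.11 ± 0.291 CPM (SD, n = 4). Its interaction, -1.04 ± 0.21, had an adjusted p of 0.238 by edgeR. No other gene of the list was called between the shRNAs.

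Among 15 SR proteins and related factors, which mostly promote exon inclusion, Tra2b, Srsf11 and Tra2a were called higher with bicuculline (0.64, 0.63 and 0.61 in Control-shRNA, and 0.73, 0.83 and 0.79 in the knockdown) and none was called lower. With library sizes in place of TMM none of the 3 was called in Control-shRNA, at 0.48, 0.47 and 0.46. On log2(TPM + 1) Tra2b and Tra2a were 0.47 and 0.34 there, and Srsf11 and Tra2a were not called there without Control-shRNA bicuculline replicate 1, at 0.47 and 0.50. Of the 7 kinases that phosphorylate SR proteins, Clk4 (0.73 and 0.69) and Clk3 (0.71 and 0.80) were called higher. On log2(TPM + 1) Clk3 was 0.48 and 0.47 and no longer called. No SR protein and no kinase was called between the shRNAs.

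Of 20 hnRNP genes, to which Ptbp1 is related in function, 4 were called higher and 1 lower with bicuculline in each culture, beside 10.8% and 11.1% of all tested genes in Control-shRNA and 12.6% and 13.2% in the knockdown. The 3 of greatest size were Hnrnpll (1.02 ± 0.09 and 1.17 ± 0.09), Hnrnph3 (0.87 ± 0.10 and 0.88 ± 0.10), and Hnrnpa2b1 (0.85 ± 0.12 and 1.11 ± 0.12), and Hnrnpr was lower (-0.51 ± 0.07 and -0.65 ± 0.07). The other one called higher was Hnrnpu (0.56 ± 0.10 and 0.56 ± 0.10), named here after its values were seen. It was 0.40 and 0.41 with library sizes in place of TMM, 0.47 and 0.49 on log2(TPM + 1), 0.49 in Control-shRNA without its bicuculline replicate 1, and 0.49 in the knockdown without its baseline replicate 2 or its bicuculline replicate 1. In Control-shRNA Hnrnpr was -0.49 with DESeq2 and with its size factors in edgeR, -0.47 without Control-shRNA baseline replicate 4 and -0.49 without Control-shRNA bicuculline replicate 3. None of the 20 was called between the shRNAs. At any fold, 6 had an adjusted p under 0.05 at baseline and 9 with bicuculline, all higher in the knockdown. The shares over all tested genes were 16.3% and 17.7%.

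Raver2, which encodes a ribonucleoprotein that binds PTBP1, was the only one called of 12 co-regulators, and it was lower in all 4 comparisons. It stood at 41.1, 35.5, 33.5 and 37.6 CPM in Control-shRNA at baseline and at 15.0, 17.8, 15.9 and 15.4 CPM with bicuculline. In the knockdown it stood at 17.1, 19.7, 21.5 and 20.9 CPM at baseline and at 8.04, 10.3, 11.1 and 8.64 CPM with bicuculline. The log2 fold change was -1.20 ± 0.10 and -1.06 ± 0.11 with bicuculline, and -0.90 ± 0.10 and -0.75 ± 0.11 with the knockdown.

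Of 12 genes with textbook exons under the control of these regulators, 1 was called in each comparison, and these are values of the whole gene, not of the exon. Dlg4, the gene of PSD-95, whose mRNA is destabilised when PTBP proteins make an exon skip, was lower in the knockdown at baseline (671 ± 17.0 against 421 ± 17.5 CPM, SD, n = 4, log2 fold change -0.67 ± 0.05) and with bicuculline (-0.76 ± 0.05). Between bicuculline and baseline Dlg4 was not called in either culture. Whether Ptbp1 had a part in the values of Dlg4 was not tested. Bcl2l1, whose exon choice gives a long and a short BCL-X protein, was lower with bicuculline (-0.50 ± 0.07 and -0.58 ± 0.07). In Control-shRNA its value lay at the threshold and was not called with voom, DESeq2, the size factors of DESeq2, a minimum of 10 counts in every library or the replicate block, at -0.50, -0.49, -0.49, -0.50 and -0.50, nor without Control-shRNA baseline replicate 1, 2 or 4 or bicuculline replicate 3 or 4, at -0.46 to -0.50. The 3 neurexin genes were not called.

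**Figure D4:**
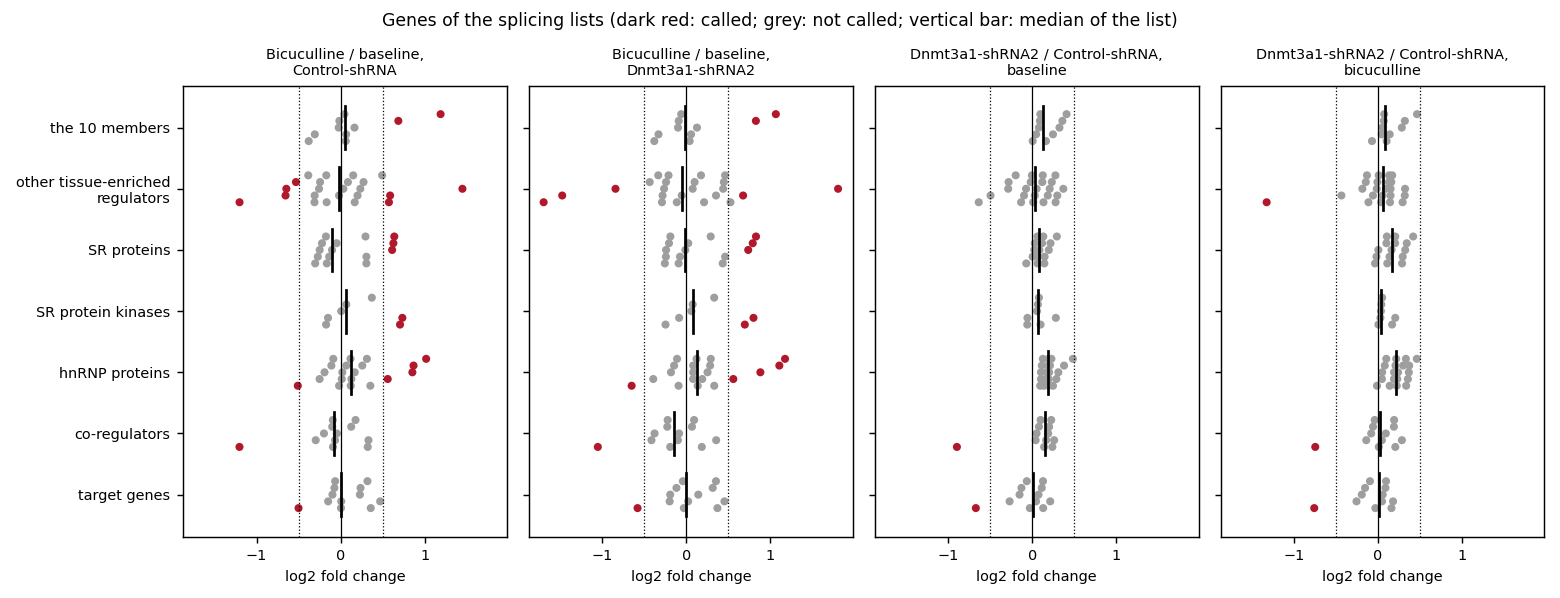
Log2 fold change (x axes) of the tested genes of each list (y axis) in the 4 comparisons, with called genes in dark red, the median of each list as a vertical bar and dotted lines at the fold threshold. The called genes lie in both directions after bicuculline, and between the shRNAs only Rbm11, Raver2 and Dlg4 are called.

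The genes whose pattern over the 16 libraries came nearest to that of Khdrbs2, by the root mean square difference of log2 CPM after centring each gene on its mean, were Mcl1 (0.13) and Stmn4 (0.14). Khdrbs2 itself varied by 0.60 about its mean on that scale. Mcl1, an anti-apoptotic BCL2 family gene whose own mRNA is alternatively spliced, had log2 fold changes with bicuculline of 1.13 and 1.22, and Stmn4, a stathmin of neurons, of 1.02 and 1.05. Nearest to Ptbp1, which varied by 0.44, were 3110039I08Rik (0.10) and the calponin gene Cnn3 (0.12), with log2 fold changes with bicuculline of 0.66 and 0.73 and of 0.59 and 0.71. In the knockdown against Control-shRNA, 3110039I08Rik had values of 0.28 and 0.35 and Cnn3 of 0.40 and 0.53.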

How the data were processed

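RNA of 16 libraries, 4 in each of 4 groups, was sequenced by a BGISeq protocol. Per the submitters' processing notes and the study's methods, the authors trimmed reads with Trim Galore 0.6.4 and quantified them with kallisto on a mouse transcriptome of GRCm38. The deposited tables give, per gene and library, an estimated count and a TPM value made by the authors, with no library pooled. Use of strand in counting is not given in the sources used here.

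The estimated counts, taken as whole numbers after rounding, were normalized with TMM and tested with the quasi-likelihood test of edgeR 4.0.16 (R 4.3.3), in 1 fit of the 4 groups after filterByExpr. Adjusted p-values are Benjamini-Hochberg values over 17222 genes. Calls between groups needed an adjusted p under 0.05 together with a log2 fold change of more than 0.5 in either direction, and calls of the interaction the adjusted p alone. TPM served to set genes side by side and, as log2(TPM + 1) and log2(TPM + 0.1), in limma 3.58.1. Other alternatives were voom, DESeq2 1.42.0, its size factors in edgeR, library sizes only, other filters, each comparison on its own groups, no fold threshold, a replicate block and each library left out. The steps were tested on simulated data. The deposited depth, 28912697 to 29586355 estimated counts per library, left the lowest count of any of the 10 genes at 127, for Khdrbs2. Over all genes, replicates differed by more than counting noise, with chi-square per degree of freedom of at least 7.14. The part of counting noise in the error of Khdrbs2 was not tested. The study gives the 4 replicates of a group as independent neuronal preparations. Apart from the replicate block, the fits ignore the replicate number, so their p-values rest on the spread between the libraries of a group. If groups share preparations, those p-values ignore that pairing and do not measure the spread of the change within a preparation.

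The labels number the replicates 1 to 4 in every group. Deviations of same-numbered libraries correlated at 0.142 to 0.221 for bicuculline in Control-shRNA and at 0.204 to 0.355 for the shRNAs at baseline. The ranges were 0.0631 to 0.337 for bicuculline in the knockdown and 0.0667 to 0.388 for the shRNAs with bicuculline. Every correlation was positive, and only replicate 4 in the last 2 comparisons was under 0.1. In all 4 groups the mitochondrial percent was highest in replicate 1 and lowest in replicate 3. Whether a number marks the same preparation in every group is not stated in the labels and was not settled by these values.

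The 10 genes and the other lists were chosen with earlier results of these data known. Beside the 10, the text names the called genes of each list, at most 3 in each direction by size of change, and the 2 genes nearest in pattern to each called member. Promoters came from RefSeq, and 31-mers from GENCODE M21 transcripts.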

Additional observations from a re-analysis of the deposited data

Results flagged for a closer look

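Each of the 10 genes was screened in each of the 4 groups for a library far from the other 3, by the gap to its nearest neighbour over the range of the group, against Dixon's 95% critical value. Of 40 groups screened, 2 stood out, and chance alone gives about 1 in 20. Nova2 in Control-shRNA baseline replicate 1 was at 199 CPM, above the other 3 libraries, with a ratio of 0.952. Without that library the change of Nova2 with bicuculline in Control-shRNA was -0.27 on the log2 scale (adjusted p = 0.0394, edgeR). Khdrbs1 in Dnmt3a1-shRNA2 bicuculline replicate 3 was at 116 CPM, below the other 3 libraries, with a ratio of 0.958. Without that library the difference of Khdrbs1 between the shRNAs with bicuculline was 0.36 (adjusted p = 0.000189, edgeR).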

How the results depend on the processing

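The number of the 10 genes called was 4 on log2(TPM + 0.1) for bicuculline in Control-shRNA. With library sizes in place of TMM, Ptbp2 was called lower with bicuculline in both cultures (-0.54 and -0.53). On log2(TPM + 1) and log2(TPM + 0.1), Nova2 was called lower in Control-shRNA (-0.51 and -0.52) and in the knockdown (-0.52 and -0.53). Ptbp2 was called lower on these scales in Control-shRNA (-0.52 on each). With no fold threshold it was 5 and 4 for bicuculline in Control-shRNA and in the knockdown, and 4 and 2 for the shRNAs at baseline and with bicuculline. Leaving out 1 library in turn gave 0 to 1 for the shRNAs with bicuculline, the 1 being Ptbp1 without Control-shRNA bicuculline replicate 2. Khdrbs2 was called with bicuculline in 26 of 26 alternatives in both cultures. Ptbp1 was called in 25 of 26 in Control-shRNA and in 26 of 26 in the knockdown.

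Of 40 log2 fold changes of the 10 genes, 24 kept their sign in every alternative. The 16 that turned were at most 0.16 in size, and none was called. With library sizes only, which moved the median of all genes by -0.15 and -0.16 with bicuculline and by -0.07 and -0.08 between the shRNAs, the values that turned were -0.091, -0.11 and -0.096 for Nova1, Rbfox2 and Khdrbs3 with bicuculline in Control-shRNA, and -0.11, -0.025 and -0.091 for Nova1, Rbfox3 and Khdrbs3 in the knockdown. Between the shRNAs they were -0.080, -0.00271 and -0.037 for Rbfox1, Khdrbs3 and Ptbp2 at baseline, and -0.00346, -0.021 and -0.0286 for Nova1, Rbfox3 and Ptbp2 with bicuculline. On log2(TPM + 1) and log2(TPM + 0.1), with bicuculline in Control-shRNA, they were -0.30 and -0.32 for Nova1, -0.13 on both for Rbfox2 and for Khdrbs3, and -0.0313 and -0.0315 for Rbfox3. In the knockdown they were -0.12 and -0.13 for Nova1, -0.0663 and -0.0667 for Rbfox3, and -0.0890 and -0.0894 for Khdrbs3. Between the shRNAs at baseline they were -0.0888 and -0.0894 for Rbfox1, -0.0660 and -0.0664 for Rbfox3, -0.0387 and -0.0389 for Khdrbs3, and -0.0527 and -0.0532 for Ptbp2. With bicuculline they were -0.0157 and -0.0158 for Rbfox2 and -0.10 on both for Rbfox3. Rbfox1 with bicuculline in Control-shRNA was 0.00114 with DESeq2 and with its size factors in edgeR. Rbfox1 between the shRNAs at baseline was -0.00572 with voom, -0.00601 with at least 10 counts in every library, -0.00918 in a fit of those 2 groups and -0.00452 with the replicate block. Leaving out 1 library gave Rbfox1 values of -0.0499 to 0.00374 with bicuculline in Control-shRNA and of -0.0757 to 0.0829 between the shRNAs at baseline, Ptbp2 -0.0189 to 0.10 between the shRNAs at baseline, and Rbfox3 -0.000575 to 0.0907 between the shRNAs with bicuculline. The cause was not tested.

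The replicate block changed no call among the 10 genes. At any fold it moved the genes with an adjusted p under 0.05 from 4 to 6 for bicuculline in the knockdown, adding Rbfox2 (adjusted p = 0.039, edgeR) and Rbfox3 (0.0293). For the shRNAs with bicuculline it moved them from 2 to 3, adding Khdrbs2 (0.0423). Whether the numbers pair the libraries in these comparisons was not settled. Libraries correlated best with their own number in 6 and 5 of 8 for bicuculline in Control-shRNA and in the knockdown, and in 7 and 4 of 8 for the shRNAs at baseline and with bicuculline. Over all genes, dropping the fold threshold gave 7131, 7919, 2809 and 3046 calls in these 4 comparisons. Scaling also moved the any-fold counts among the 10 genes, to 6, 7, 2 and 2 with library sizes in place of TMM. On log2(TPM + 1) they were 5, 7, 1 and 0. Khdrbs1 was among those added with bicuculline. It was -0.18 and -0.21 with library sizes (adjusted p = 0.00819 and 0.0025, edgeR) and -0.22 and -0.25 on log2(TPM + 1) (adjusted p = 0.0126 and 0.00407, limma).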
